A study of Homo sapiens with 26 samples.

Results

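The potassium channel genes of KELLY neuroblastoma cells were examined, chosen as every gene symbol in the deposited tables that begins with KCN followed by a family letter and a number and holds no hyphen. The rule took 97 of 26485 genes, without use of any measured value. By the family letters, 40 encode voltage-gated channel subunits, 16 inward rectifiers, 15 two-pore channels, 8 calcium- or sodium-activated channels and 16 auxiliary subunits, and 2 are long non-coding RNAs named after their neighbour KCNQ1. After the filter on low counts, 59 members were tested in cell culture and 63 in xenografts, and 34 were tested in neither.

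KELLY, a permanent cell line from a human neuroblastoma, carries extra copies of MYCN, and the study asked what the co-repressor RUNX1T1 does in such cells. All 3 cultured lines carried a doxycycline-inducible lentiviral vector with GFP, which per the labels was empty (EV) or encoded 1 of 2 RUNX1T1 hairpins, sh4 or shAMB. Each line was kept for 72 h with the solvent DMSO or with doxycycline, in 3 replicates per group. The 8 xenografts were grown under the skin of female NOD SCID gamma mice of 5 to 6 weeks from hairpin-carrying KELLY cells, and the labels name 4 as wild type on control food and 4 as RUNX1T1 KO on doxycycline food, of 600 mg/kg per the methods of the study. That KO group is thus an induced hairpin and not a deletion, and the labels do not say which hairpin the tumours carried. The study's text gives it as the hairpin built on an Ambion sequence, which the name shAMB matches, although no source used here states that match. No xenograft group is labelled as empty vector, so doxycycline food and hairpin cannot be told apart in the tumours. The hosts lack lymphocytes but tumours still hold mouse stroma, and the sources used here do not say how mouse reads were treated. The labels do not say that replicates were separate cultures, so p-values may measure technical spread only.

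Potassium channels let potassium leave or enter the cell and set the resting potential, the shape of action potentials and the rate of firing. Voltage-gated (Kv) channels are built of several pore subunits and open on depolarisation, calcium-activated channels open as calcium rises, inward rectifiers (Kir) and two-pore (K2P) channels hold the membrane near rest, and auxiliary subunits bind the pore subunits and alter their gating or their delivery to the surface. In sympathetic neurons, the normal relatives of neuroblastoma cells, Kv1, Kv2, Kv4 and Kv7 channels together control repetitive firing.

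Each library held 35115915 to 54736733 expected counts in culture and 47346063 to 62378060 in xenografts, of which the members took 0.0398% to 0.0638% and 0.104% to 0.181%. The non-coding KCNQ1OT1 held 38.1% to 58.7% of the member counts in xenografts and 1.84% to 4.74% in culture, and without it the members took 0.0534% to 0.0860% of xenograft counts and 0.0385% to 0.0615% of culture counts. RUNX1T1 RNA, the hairpin target, averaged 34.3 ± 0.90 CPM with DMSO and 31.8 ± 1.94 with doxycycline in sh4 (SD, n = 3), 40.9 ± 1.04 and 42.5 ± 1.42 in shAMB, and 35.5 ± 5.51 and 30.2 ± 5.19 in control and KO xenografts (n = 4). None of these 3 comparisons passed the test (adjusted p = 0.117, 0.378 and 0.229 by edgeR), so the labels of the induced groups are not checked by the target's RNA. At the protein level, the study does report less RUNX1T1 in KELLY cells given doxycycline with both of its hairpins. It also reports loss of RUNX1T1 staining in KELLY xenografts after knockdown. Protein is not part of the data used here. The 11 adrenergic neuroblastoma markers were all above 1 CPM in all 8 groups. Their summed level was 5071 to 5968 CPM in sh4 with DMSO and 5866 to 7392 with doxycycline, 4842 to 5123 CPM in shAMB with DMSO, 8908 to 9759 with doxycycline, and 5595 to 6917 against 8349 to 11760 in control and KO xenografts. The 5 endothelial markers summed to 0.822 to 2.33 CPM and the 5 leukocyte markers to 0.641 to 2.70 over all libraries (0.641 to 0.776 in shAMB with DMSO and 1.52 to 2.31 with doxycycline), with PECAM1, CDH5, PTPRC and CD14 under 1 CPM in every group. The 5 fibroblast markers summed to 28.6 to 78.2 CPM in culture (37.6 to 47.5 in sh4 with DMSO and 58.2 to 78.2 with doxycycline, 41.95 to 50.2 and 28.6 to 36.0 in shAMB) and 6.13 to 14.3 in xenografts, with DCN and COL1A2 under 1 CPM in every group, and the 5 Schwann cell markers to 3.88 to 5.46 in culture, 5.96 to 7.89 in control and 2.80 to 3.64 in KO xenografts, with SOX10 under 1 CPM in every group. Their part in the results below was not tested.

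Which channels the cells express was read from length-scaled levels, in CPM (normalised counts scaled to a common library size) per kilobase of transcript, since raw counts favour long transcripts. In EV cells with DMSO KCNJ8 (13.7), KCNH2 (11.3), KCNK3 (10.3) and KCNIP4 (9.18 CPM per kilobase) were among the highest means. KCNJ8 is the pore subunit of an ATP-sensitive inward rectifier, KCNH2 of the ERG channel of heart and neurons and KCNK3 of an acid-sensitive two-pore leak channel, while KCNIP4 is a calcium-binding partner of Kv4 channels. KCNQ5 (5.84), KCNAB1 (5.36), KCNT2 (5.21), KCNMB3 (5.09), KCNJ12 (4.61), KCNAB2 (3.15) and KCNIP2 (2.97) were also among the 12 highest. KCNT2 is a sodium-activated pore subunit, KCNJ12 a strong inward rectifier whose reads can be shared with its near-identical copy KCNJ18, and KCNIP2 a further Kv4 partner. These are means of 3 libraries, and the order within them is not a test: KCNH2 ranged from 24.9 to 36.4 CPM across the EV libraries with DMSO, more widely than KCNJ8 (30.5 to 34.1 CPM).

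**Figure D1:**
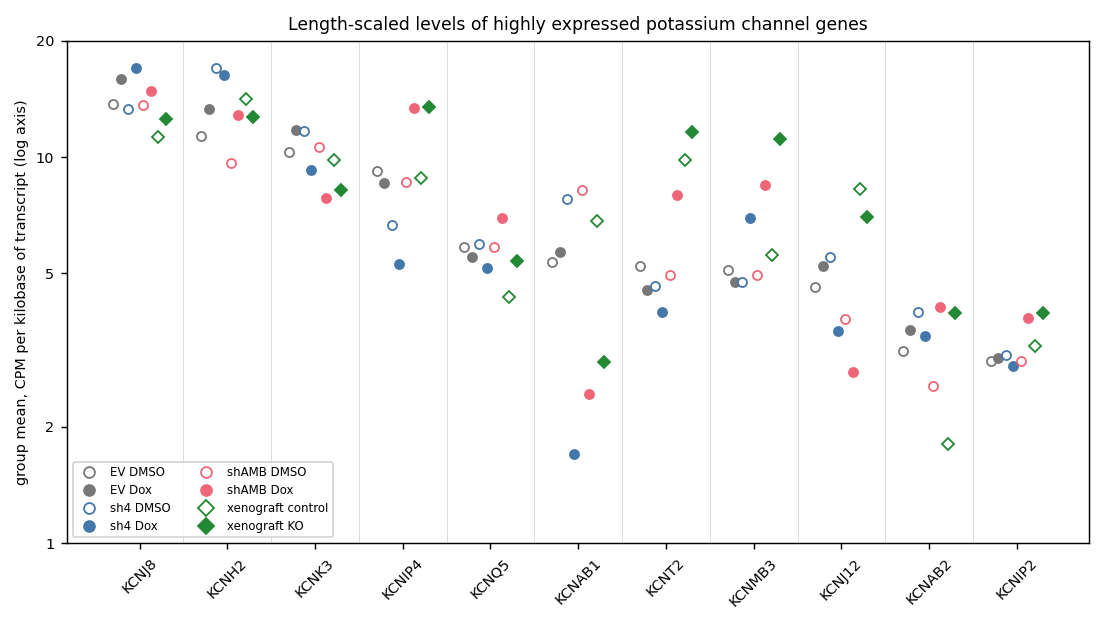
Group means in CPM per kilobase of transcript (log axis) of 11 of the 12 members with the highest level in EV cells with DMSO, in all 8 groups. Open symbols are uninduced or control groups, filled symbols doxycycline or KO groups, circles cultures and diamonds xenografts. The 2 filled hairpin circles and the filled diamond of KCNAB1 lie at 1.70, 2.43 and 2.94, each under its own open symbol. Culture and xenograft libraries were normalised separately.

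Doxycycline alone was tested in the EV line. None of the 59 tested members passed the threshold (adjusted p under 0.05, edgeR quasi-likelihood test), beside 0.0939% of all genes tested, and 5 had an unadjusted p under 0.05. DESeq2, limma on TPM and every other alternative also gave 0. In the sh4 line 13 members rose and 14 fell with doxycycline, beside 22.9% and 18% of all genes (40.9% in both directions). The members called made up 45.8% of those tested, near the background. Uninduced sh4 replicate 1 and induced sh4 replicate 3 stood highest in their groups for GC-rich members such as KCNH2 (53.3 and 61.9 CPM), and without the first 11 rose and 9 fell, without the second 15 and 17. In shAMB 34 rose and 5 fell, beside 37.6% and 28.4% of all genes (66% together). The share called, 66.1%, was near the background. Of the members called 87.2% were higher, beside 56.9% of all genes called, and the median log2 change was 0.69, beside 0.10. Of these 34, 7 reached the filter level in all libraries of 1 group or none (KCNA6, KCND3, KCNE4, KCNF1, KCNH8, KCNIP3 and KCNJ5), so that they could enter the test only if high there. Apart from them 27 members rose and 5 fell. The 34, their share and the median are therefore not read against the background. Between KO and control xenografts 26 members were higher and 3 lower, beside 21.2% and 19.9% of all genes (41.1% together), with a median of 0.45 against 0.02. KCNE4, KCNF1 and KCNIP3 were the ones among the 26 that reached the filter level in only 1 group, beside 23 others. The 26 and their median are likewise not read against the background.

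These splits depended on scaling. With trends in GC content and transcript length removed, 32 members rose and 11 fell in shAMB (74.4% higher), and 27 and 10 in xenografts (73.0% higher), where all genes called went from 56.9% to 51.6% higher in shAMB and from 51.6% to 47.6% in xenografts. With RLE size factors or DESeq2, 83.3% of the members called in shAMB were higher, beside 50.4% and 50.3% of all genes called. On TPM 89.1% of the members called there were higher, beside 72.9% of all genes called. With only the compared groups fitted, 10 rose and 4 fell in sh4, and no share of all genes is given here for that fit. On TPM the sh4 split went from 48.1% to 72.0% higher (18 and 7) and that of all genes called from 56.0% to 80.4%, while the median of all genes shifted from 0.00 to 0.16 in sh4 and from 0.10 to 0.26 in shAMB.

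**Figure D2:**
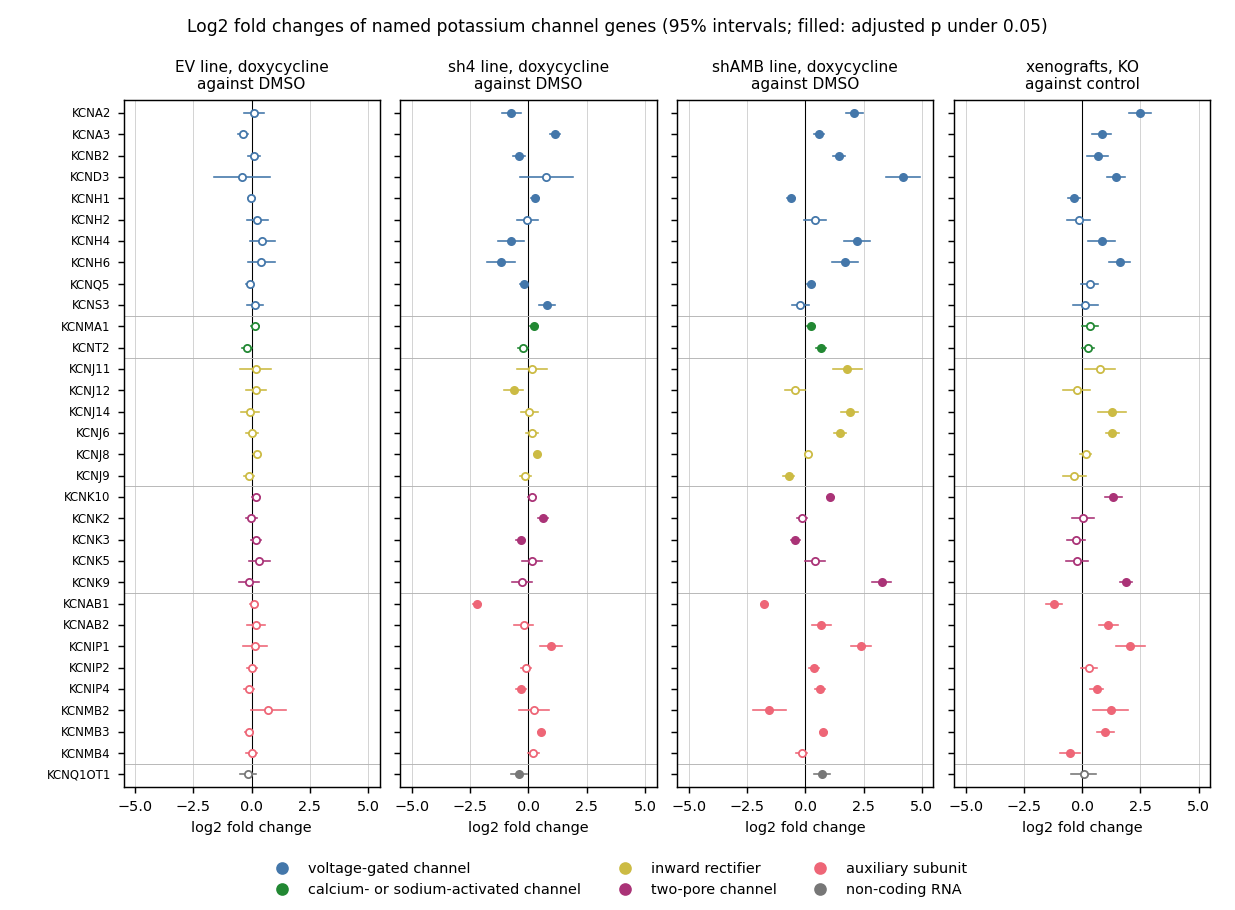
Log2 fold change (point) with its 95% interval (line) of 32 members picked by the naming rule in the EV, sh4 and shAMB lines and in xenografts, coloured and grouped by class. Filled points passed the threshold. No point of the EV panel is filled, and KCNAB1 lies at -2.20, -1.76 and -1.21 in the other panels.

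KCNAB1, a cytoplasmic beta subunit that binds Kv1 channels and speeds their inactivation, was the member that fell in both hairpin lines and in xenografts by more than 1 on the log2 scale. In sh4 it was at 27.9, 29.8 and 31.0 CPM with DMSO and at 6.90, 6.52 and 5.92 with doxycycline. The 2 groups lay far apart, a 4.58-fold lower level (log2 fold change -2.20 with SE 0.077, adjusted p = 7.4e-12). In shAMB the libraries were at 30.0, 32.9 and 30.7 CPM with DMSO and 9.43, 9.29 and 8.91 with doxycycline, again without overlap (log2 fold change -1.76 with SE 0.075, adjusted p = 2.1e-11). Control xenografts held 23.7, 33.4, 21.0 and 25.2 CPM and KO xenografts 10.7, 11.1, 9.70 and 13.1 (log2 fold change -1.21 with SE 0.16, adjusted p = 0.000189). Every KO tumour was lower than every control tumour. EV cells were at 22.0, 19.9 and 19.0 CPM with DMSO and 20.5, 21.9 and 22.1 with doxycycline, which overlapped (log2 fold change 0.09, 95% interval -0.07 to 0.24). Tested against the EV change, the difference (± SE) was -2.28 ± 0.10 in sh4 and -1.84 ± 0.10 in shAMB on the log2 scale (adjusted p = 6.0e-10 and 1.7e-09), and these 2 comparisons share the EV libraries. The call held in every alternative for all 3 falls. Both uninduced hairpin lines started above EV: KCNAB1 was the only member higher than in EV cells with DMSO, by 0.54 ± 0.072 in sh4 and 0.62 ± 0.072 in shAMB (adjusted p = 0.000702 and 0.000159). With the sh4 and EV groups with DMSO fitted alone, the adjusted p of the first was 0.0948. The induced levels were still under the EV levels in all 6 libraries.

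Promoter sequence is shown for KCNAB1, which fell in all 3 settings, for KCNH4, which moved in opposite directions with the 2 hairpins, and for KCNIP1, which rose in all 3 settings. These windows hold the 250 bases before a RefSeq start (GRCh38.p14), 5′ to 3′ on the strand of the gene, and capitals mark CACGTG, the E-box of MYC and MAX, or CATCTG and CAGATG, an E-box form bound by HAND2-type factors, searched on both strands. RefSeq has 5 starts for KCNAB1 (chromosome 3), 1 for KCNH4 (chromosome 17) and 2 for KCNIP1 (chromosome 5). The KCNAB1 and KCNIP1 windows shown lie within introns of longer GENCODE transcripts of these genes, and none of the 3 overlaps an exon of its own gene. The windows are chr3:156290737-156290986 (+), chr17:42181143-42181392 (-) and chr5:170503770-170504019 (+).
KCNAB1: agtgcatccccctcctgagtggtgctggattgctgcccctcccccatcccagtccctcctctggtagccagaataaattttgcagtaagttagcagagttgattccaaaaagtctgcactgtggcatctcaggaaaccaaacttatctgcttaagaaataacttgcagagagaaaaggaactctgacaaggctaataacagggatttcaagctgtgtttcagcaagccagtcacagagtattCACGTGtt
KCNH4: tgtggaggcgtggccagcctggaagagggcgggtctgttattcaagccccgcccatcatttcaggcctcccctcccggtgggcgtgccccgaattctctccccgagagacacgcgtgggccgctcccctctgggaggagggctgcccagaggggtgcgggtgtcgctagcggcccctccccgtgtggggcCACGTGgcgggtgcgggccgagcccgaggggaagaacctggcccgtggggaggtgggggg
KCNIP1: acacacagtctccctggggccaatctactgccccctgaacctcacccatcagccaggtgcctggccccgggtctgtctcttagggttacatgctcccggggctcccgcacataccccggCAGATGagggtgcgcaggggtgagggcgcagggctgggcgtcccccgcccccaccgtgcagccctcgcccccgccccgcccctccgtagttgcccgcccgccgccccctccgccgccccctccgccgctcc
CACGTG begins 8 bases before the start shown in KCNAB1, in 2 of its 5 windows, and 60 bases before that of KCNH4, and CAGATG begins 131 bases before that of KCNIP1, in 1 of its 2 windows. Windows were found for 72 of the 97 members. CACGTG was in 6.34% of all 35116 RefSeq windows and in 7 of 110 member windows (6.36%), and the other form in 12.2% and in 17 of 110 (15.5%). Such a match is a description of letters, and binding was not measured here.

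With KCNAB1 among them, 3 of 12 tested auxiliary subunits rose and 2 fell in sh4, 7 rose and 2 fell in shAMB, and 8 of 13 were higher and 2 lower in KO xenografts, beside 22.9% and 18%, 37.6% and 28.4%, and 21.2% and 19.9% of all genes. The 7 and the 8 include KCNE4 and KCNIP3, which reached the filter level in only 1 culture group and 1 xenograft group. Those counts are therefore not read against the background. KCNMB3, a beta subunit of the large-conductance calcium-activated (BK) channel, was at 8.42, 9.32 and 9.16 CPM in sh4 with DMSO and 13.6, 14.0 and 11.8 with doxycycline (log2 fold change 0.55 with SE 0.076, adjusted p = 2.8e-05). In shAMB it went from 9.12, 9.41 and 9.49 to 16.6, 15 and 16.6 CPM (log2 fold change 0.78 with SE 0.076, adjusted p = 2.9e-07), and from 12.6, 11.6, 8.15 and 10 in control to 18.1, 24.1, 17.98 and 24.1 in KO xenografts (log2 fold change 0.99 with SE 0.17, adjusted p = 0.00086). All 3 pairs of groups were free of overlap. By the GENCODE annotation 38.0% of its exon bases are covered on the other strand by PIK3CA, whose reads could be counted to it if counting ignored strand. KCNIP1, a calcium-binding partner of Kv4 channels, was low in uninduced cells, at 0.269, 0.413 and 0.416 CPM in sh4 and 0.567, 0.468 and 0.348 in shAMB. With doxycycline it stood at 0.709, 0.681 and 0.761 and at 2.396, 2.80 and 2.05 CPM (log2 fold change 0.97 and 2.38, adjusted p = 0.00237 and 5.7e-08), and it rose from 0.683, 0.813, 0.717 and 0.903 to 1.78, 3.98, 3.60 and 3.81 CPM in xenografts (log2 fold change 2.07 with SE 0.27, adjusted p = 0.000201). The sh4 rise of KCNIP1 was not called beyond the EV change (adjusted p = 0.0724).

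KCNIP4, the most expressed Kv4 partner, went in opposite directions in the hairpin lines. It fell from 14.7, 16.7 and 16.4 to 14.4, 13.2 and 10.4 CPM in sh4 (log2 fold change -0.33 with SE 0.098, adjusted p = 0.0138) and rose from 21.2, 20.7 and 20.1 to 32.9, 32.0 and 31.4 CPM in shAMB (log2 fold change 0.64 with SE 0.096, adjusted p = 3.2e-05). KO xenografts, at 33.3, 31.0, 30.7 and 34.3 CPM, all exceeded the controls at 25.6, 21.1, 17.6 and 20.1 (log2 fold change 0.62 with SE 0.12, adjusted p = 0.00212). PACRGL and another gene on the other strand overlap 46.3% of its exon bases, and the sh4 call was lost in 3 alternatives. KCNIP2 rose by 0.37 in shAMB (adjusted p = 0.00399), and its log2 changes of -0.10 in sh4 and 0.29 in xenografts did not pass. KCNIP3, also known as the DREAM repressor, had 2, 0 and 1 counts in the uninduced shAMB libraries and 16, 29 and 16 in the induced ones, too few uninduced to fix the size of its change. KCNAB2, the Kv1 beta subunit with a role in channel delivery, rose in shAMB from 10.4, 8.86 and 10.8 to 14.6, 15.8 and 18.2 CPM (log2 fold change 0.69 with SE 0.19, adjusted p = 0.00474) and in xenografts from 5.74, 8.85, 6.52 and 7.36 to 16.8, 16.4, 17.4 and 11.7 (log2 fold change 1.13 with SE 0.17, adjusted p = 0.000539), opposite to KCNAB1. With GC and length trends removed its shAMB change was 0.03 (adjusted p = 0.606). KCNMB2, an inactivating BK beta subunit, was one of the 5 members that fell in shAMB, from 0.419, 0.312 and 0.428 to 0.179, 0.105 and 0.115 CPM (log2 fold change -1.54 with SE 0.34, adjusted p = 0.000972), yet it was higher in KO xenografts (0.448, 0.632, 0.412 and 0.669 against 1.17, 1.04, 0.779 and 2.08 CPM, adjusted p = 0.0143). The shAMB fall rests on 17, 12 and 16 against 8, 6 and 5 counts. EV cells with DMSO, at 0.1825, 0.189 and 0.144 CPM, lay below the uninduced shAMB libraries of KCNMB2 without overlap. That difference between uninduced lines did not pass (log2 fold change 1.15, adjusted p = 0.133 by edgeR). KCNMB4, the neuronal BK beta subunit, was one of the 3 lower in KO xenografts (log2 fold change -0.53, adjusted p = 0.0489, groups overlapping), a call lost in 9 alternatives.

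Among voltage-gated pore subunits, 7 of 27 tested rose and 8 fell in sh4, 17 rose and 1 fell in shAMB, and 13 of 28 were higher and 1 lower in KO xenografts. Of the 17, KCNA6, KCND3, KCNF1 and KCNH8 reached the filter level in only 1 culture group, and of the 13, KCNF1 in only 1 xenograft group. The 17 and the 13 are therefore not read against the background. Of all genes, 22.9% rose and 18% fell in sh4, 37.6% and 28.4% in shAMB, and 21.2% and 19.9% were higher and lower in KO xenografts. KCNA3, the Kv1 channel best known from T lymphocytes, rose in all 3. Its sh4 libraries were at 2.02, 2.28 and 2.23 CPM with DMSO and 4.96, 5.02 and 4.42 with doxycycline (log2 fold change 1.14 with SE 0.096, adjusted p = 1.3e-07). The shAMB libraries went from 3.10, 3.38 and 3.34 to 4.63, 4.91 and 5.22 CPM (adjusted p = 5.4e-05), and xenografts from 8.24, 7.18, 5.88 and 7.49 to 9.03, 14.3, 11.99 and 16.1 CPM (adjusted p = 0.00479). No pair of groups overlapped. Its rise was 0.55 ± 0.13 larger in sh4 than in shAMB on the log2 scale (adjusted p = 0.00233). In EV cells KCNA3 had a log2 change of -0.36 (95% interval -0.57 to -0.15, adjusted p = 0.569), and uninduced sh4 cells lay below EV cells by a log2 difference of -0.46 (adjusted p = 0.0309).

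KCNA2, the Kv1 pore subunit of axons, fell with sh4 and rose with shAMB. In sh4 it was at 1.23, 1.57 and 1.71 CPM with DMSO and 0.779, 0.973 and 0.957 with doxycycline (log2 fold change -0.73 with SE 0.19, adjusted p = 0.00661). In shAMB it was at 1.65, 1.61 and 1.47 and 6.49, 6.35 and 7.62 CPM, a 4.31-fold rise (log2 fold change 2.11 with SE 0.18, adjusted p = 4.8e-08). Control xenografts held 2.52, 2.94, 1.90 and 2.33 CPM and KO xenografts 9.06, 17.0, 13.6 and 14.3, a 5.57-fold higher level (log2 fold change 2.48 with SE 0.22, adjusted p = 2.1e-05). The xenograft and shAMB changes thus had the same sign and the sh4 change the other, with no overlap between groups in any of the 3. KCNA6, a further Kv1 pore subunit, passed in shAMB (0.468, 0.234 and 0.214 against 1.12, 0.927 and 0.969 CPM, adjusted p = 0.00015) and in xenografts (adjusted p = 0.0303), where its groups overlapped and the call was lost in 8 alternatives.

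KCNB2, a delayed rectifier, fell in sh4 (2.08, 1.87 and 1.89 against 1.30, 1.58 and 1.497 CPM, adjusted p = 0.0149, lost in 5 alternatives) and rose in shAMB from 1.90, 2.10 and 2.06 to 5.22, 5.91 and 5.35 CPM (log2 fold change 1.44 with SE 0.12, adjusted p = 4.1e-08). KCNS3, a silent subunit that alters Kv2 channels, rose in sh4 from 1.08, 1.02 and 0.906 to 1.82, 1.64 and 1.77 CPM (log2 fold change 0.79 with SE 0.16, adjusted p = 0.000819), and KCNS1, of the same family, from 0.461, 0.433 and 0.612 to 1.51, 1.69 and 1.30 CPM (adjusted p = 3.4e-05). In shAMB both had negative log2 changes that did not pass (-0.21 and -0.44). The differences between the hairpins were 1.00 for KCNS3 and 2.03 for KCNS1 (adjusted p = 0.00177 and 0.0001).

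KCND3, a Kv4 subunit of the rapidly inactivating A-type current, was at 0.197, 0.130 and 0.214 CPM in uninduced and 3.07, 3.36 and 3.72 in induced shAMB cells, 18.5-fold apart (log2 fold change 4.21 with SE 0.34, adjusted p = 3.6e-08). Its uninduced shAMB libraries held 8, 5 and 8 counts. KCND3 reached the filter level in only 1 culture group, so that it could enter the test only if high there. In the sh4 line its libraries reached at most 0.196 CPM in either group. Control xenografts, normalised apart from the cultures, held 4.27, 5.10, 4.57 and 4.10 CPM, and KO xenografts 15.9, 12.3, 12.3 and 9.00 (log2 fold change 1.46 with SE 0.18, adjusted p = 0.000139).

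The EAG, ERG and ELK family (KCNH) held several members that moved in opposite directions with the 2 hairpins. KCNH4, an ELK channel, was at 11.8, 9.42 and 7.57 CPM in sh4 with DMSO and 3.78, 5.08 and 8.25 with doxycycline, which overlapped (adjusted p = 0.0268, lost in 6 alternatives). In shAMB it rose from 6.09, 3.92 and 5.80 to 20.8, 23.1 and 30.3 CPM (log2 fold change 2.23 with SE 0.26, adjusted p = 2.1e-06). KCNH6, an ERG channel, went from 1.54, 1.30 and 0.881 to 0.520, 0.584 and 0.540 CPM in sh4 (log2 fold change -1.18 with SE 0.28, adjusted p = 0.00323) and from 1.16, 0.442 and 0.856 to 2.51, 2.71 and 2.84 in shAMB (log2 fold change 1.71 with SE 0.26, adjusted p = 3.6e-05). It was also higher in KO xenografts, at 2.88, 2.13, 2.46 and 1.96 against 0.683, 0.903, 0.770 and 0.736 CPM (adjusted p = 0.000194). KCNH3, the ELK channel of forebrain, moved in the same 2 directions from below 1 CPM, with log2 changes of -1.79 in sh4 and 2.41 in shAMB (adjusted p = 0.0106 and 0.000136). Its sh4 groups overlapped, the sh4 call was lost in 2 alternatives, and the sh4 change ran from -3.04 to -1.11 over the alternatives. KCNH8, by contrast, rose in both, from at most 0.123 CPM uninduced to 0.189, 0.370 and 0.368 CPM in sh4 and 0.358, 0.455 and 0.508 in shAMB (adjusted p = 0.00271 and 9.3e-05).

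KCNH1, the EAG channel often found in tumours, was the single member higher with sh4 and lower with shAMB. It went from 10.7, 10.8 and 11.4 to 12.5, 13.8 and 13.7 CPM in sh4 (log2 fold change 0.28 with SE 0.075, adjusted p = 0.00687) and from 10.9, 10.8 and 9.20 to 6.63, 7.06 and 6.60 in shAMB (log2 fold change -0.61 with SE 0.077, adjusted p = 5.2e-06). KO xenografts were lower too, at 38.7, 41.0, 38.7 and 44.9 against 45.8, 63.2, 46.6 and 50.7 CPM (adjusted p = 0.0362, lost in 7 alternatives). KCNH2, among the highest members, and the two-pore channel KCNK5 were above 10 CPM and passed in no comparison. KCNH2 libraries ran from 38.0 to 53.3 CPM in sh4 with DMSO and from 32.4 to 61.9 with doxycycline, and the 95% intervals of its log2 change were -0.51 to 0.39 in sh4, -0.05 to 0.87 in shAMB and -0.65 to 0.35 in xenografts. Changes within these bounds were not excluded. Its value turned with GC and length trends removed, to 0.21 in sh4 and -0.35 in shAMB, both past the threshold. For KCNK5 the intervals were -0.29 to 0.59, -0.03 to 0.86 and -0.68 to 0.27. With GC and length trends removed KCNK5 passed in sh4 and in xenografts (adjusted p = 0.00216 and 0.0193). In shAMB it passed on TPM and with only the compared groups fitted.

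Of the Kv7 (M-current) subunits, KCNQ5 fell slightly in sh4 (37.9, 37.9 and 41.1 against 35.8, 35.5 and 30.2 CPM, log2 fold change -0.20) and rose slightly in shAMB (37.1, 41.6 and 36.4 against 48.4, 42.9 and 45.2 CPM, log2 fold change 0.24). These small changes passed at adjusted p = 0.0323 and 0.00671, and were lost in 4 and 3 alternatives. KCNQ3 did not pass the filter.

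Inward rectifiers were called as follows: 1 of 10 tested rose and 1 fell in sh4, 4 rose and 1 fell in shAMB, and 2 of 11 were higher in KO xenografts, beside the same shares of all genes (22.9% and 18%, 37.6% and 28.4%, and 21.2% higher). KCNJ5, 1 of the 4, reached the filter level in all libraries of no culture group, so the 4 are not read against the background. KCNJ6, a G-protein-gated channel, was at 2.86, 3.15 and 3.08 CPM in shAMB with DMSO and 8.80, 8.74 and 8.03 with doxycycline (log2 fold change 1.49 with SE 0.12, adjusted p = 2.7e-08). Xenografts, normalised apart from the cultures, were at 19.8, 16.0, 17.8 and 17.1 CPM in controls and 34.0, 50.5, 44.2 and 44.3 with KO (log2 fold change 1.29 with SE 0.13, adjusted p = 4.2e-05). Its sh4 groups overlapped, with a log2 change of 0.16 (95% interval -0.09 to 0.42). KCNJ9, which joins KCNJ6 in the same channels, fell in shAMB from 3.48, 3.74 and 3.21 to 2.04, 2.29 and 1.99 CPM (log2 fold change -0.72 with SE 0.11, adjusted p = 3.4e-05). KCNJ14, a strong rectifier, rose in shAMB from 0.936, 0.806 and 1.28 to 3.60, 3.44 and 4.36 CPM (adjusted p = 1.3e-07) and in xenografts from 1.54, 2.60, 0.967 and 1.54 to 4.27, 3.83, 3.46 and 4.73 (adjusted p = 0.00317).

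The pore subunits of ATP-sensitive channels were split. KCNJ11 rose in shAMB from 0.936, 0.442 and 0.562 to 2.22, 2.10 and 2.56 CPM (log2 fold change 1.81 with SE 0.30, adjusted p = 6.8e-05), and its sulfonylurea receptor partner ABCC8 rose with both hairpins, by 1.04 in sh4 and 1.73 in shAMB on the log2 scale (adjusted p = 0.00227 and 1.4e-05), and in xenografts by 0.93 (adjusted p = 0.0117). KCNJ8 was higher in induced sh4 cells (30.9, 31.9 and 32.5 against 41.6, 41.5 and 38.5 CPM, log2 fold change 0.35 with SE 0.063, adjusted p = 0.000322). In EV cells it also shifted without overlap, from 34.1, 33.9 and 30.5 to 38.6, 36.3 and 38.9 CPM, which did not pass after adjustment (log2 fold change 0.21, adjusted p = 0.672), and the sh4 rise was not called beyond the EV change. KCNJ12 was lower in sh4 (adjusted p = 0.0179) with overlapping groups, a call lost in 5 alternatives.

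Two-pore channels carry the leak current, and their calls were 1 of 5 tested higher and 1 lower in sh4, 2 and 1 in shAMB, and 2 of 6 higher in KO xenografts, beside the same shares of all genes (22.9% and 18%, 37.6% and 28.4%, and 21.2% higher). KCNK9, an acid-sensitive channel, was at 0.838, 1.196 and 1.26 CPM in uninduced and 10.8, 10.4 and 10.8 in induced shAMB cells, a 9.71-fold rise (log2 fold change 3.28 with SE 0.19, adjusted p = 7.4e-10). It also rose in xenografts, from 9.92, 7.99, 8.65 and 8.60 to 28.5, 34.3, 33.4 and 33.1 CPM (log2 fold change 1.88 with SE 0.11, adjusted p = 3.4e-06). The sh4 libraries stayed between 0.837 and 1.27 CPM in both groups, and the difference between hairpins was -3.54 ± 0.28 (adjusted p = 4.1e-08). KCNK10, a channel opened by stretch and lipids, rose in shAMB from 16.8, 15.5 and 15.1 to 34.3, 32.6 and 32.5 CPM (log2 fold change 1.07 with SE 0.077, adjusted p = 9.5e-09) and in xenografts from 13.1, 9.69, 10.1 and 9.52 to 20.1, 30.2, 25.9 and 30.6 (log2 fold change 1.33 with SE 0.16, adjusted p = 0.000118). Its relative KCNK2 rose in sh4 instead (5.38, 5.78 and 5.31 against 8.97, 8.49 and 7.78 CPM, log2 fold change 0.61 with SE 0.10, adjusted p = 0.000204), with a log2 change of -0.14 in shAMB that did not pass. KCNK3, the most expressed channel of this class, fell with both hairpins. It went from 49.5, 47.8 and 42.3 to 33.7, 34.6 and 42.1 CPM in sh4 (adjusted p = 0.00848, lost in 2 alternatives) and from 43.7, 38.0 and 44.6 to 28.6, 32.2 and 32.9 in shAMB (adjusted p = 0.000861), without overlap. Its xenograft groups overlapped (log2 fold change -0.25, 95% interval -0.64 to 0.14).

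Among calcium- and sodium-activated channels, KCNMA1, the BK pore subunit, rose by 0.24 in sh4 and 0.24 in shAMB on the log2 scale (adjusted p = 0.0242 and 0.0184). Both changes were small, at 9.74, 9.87 and 10.7 against 11.5, 12.9 and 11.5 CPM in sh4 and 11.7, 10.6 and 9.79 against 13.0, 13.2 and 11.6 in shAMB, where the groups overlapped, and were lost in 6 and 8 alternatives. Neither change of KCNMA1 was called beyond the EV change. KCNT2 rose in shAMB from 29.0, 29.9 and 28.4 to 50.9, 44.6 and 45.2 CPM (log2 fold change 0.69 with SE 0.095, adjusted p = 1.3e-05). KCNN1, a small-conductance channel, fell in sh4 (1.88, 1.14 and 0.735 against 0.307, 0.603 and 0.565 CPM, adjusted p = 0.00288) and rose in shAMB (adjusted p = 0.0454, lost in 11 alternatives), and KCNN3 was the one member of this class higher in KO xenografts (5.36, 2.94, 3.13 and 3.58 against 5.997, 7.70, 6.71 and 6.498 CPM, adjusted p = 0.00728). The non-coding KCNQ1OT1, transcribed antisense to KCNQ1, was at 11.7, 13.0 and 10.6 CPM in shAMB with DMSO and 20.6, 15.4 and 21.8 with doxycycline (log2 fold change 0.71 with SE 0.15, adjusted p = 0.000796). The sh4 change had the other sign (-0.41, adjusted p = 0.0446, lost in 8 alternatives), and the shAMB change turned to -0.81 (adjusted p = 7.8e-05) with GC and length trends removed. In xenografts this RNA was at 789, 871, 490 and 520 CPM in controls and 984, 671, 461 and 672 with KO, against 8.96 to 21.8 CPM over the culture libraries. The tables were normalised separately, the labels name polyA RNA although the kit is one for total RNA, so how RNA was selected is not settled, and the cause of that gap was not tested.

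**Figure D3:**
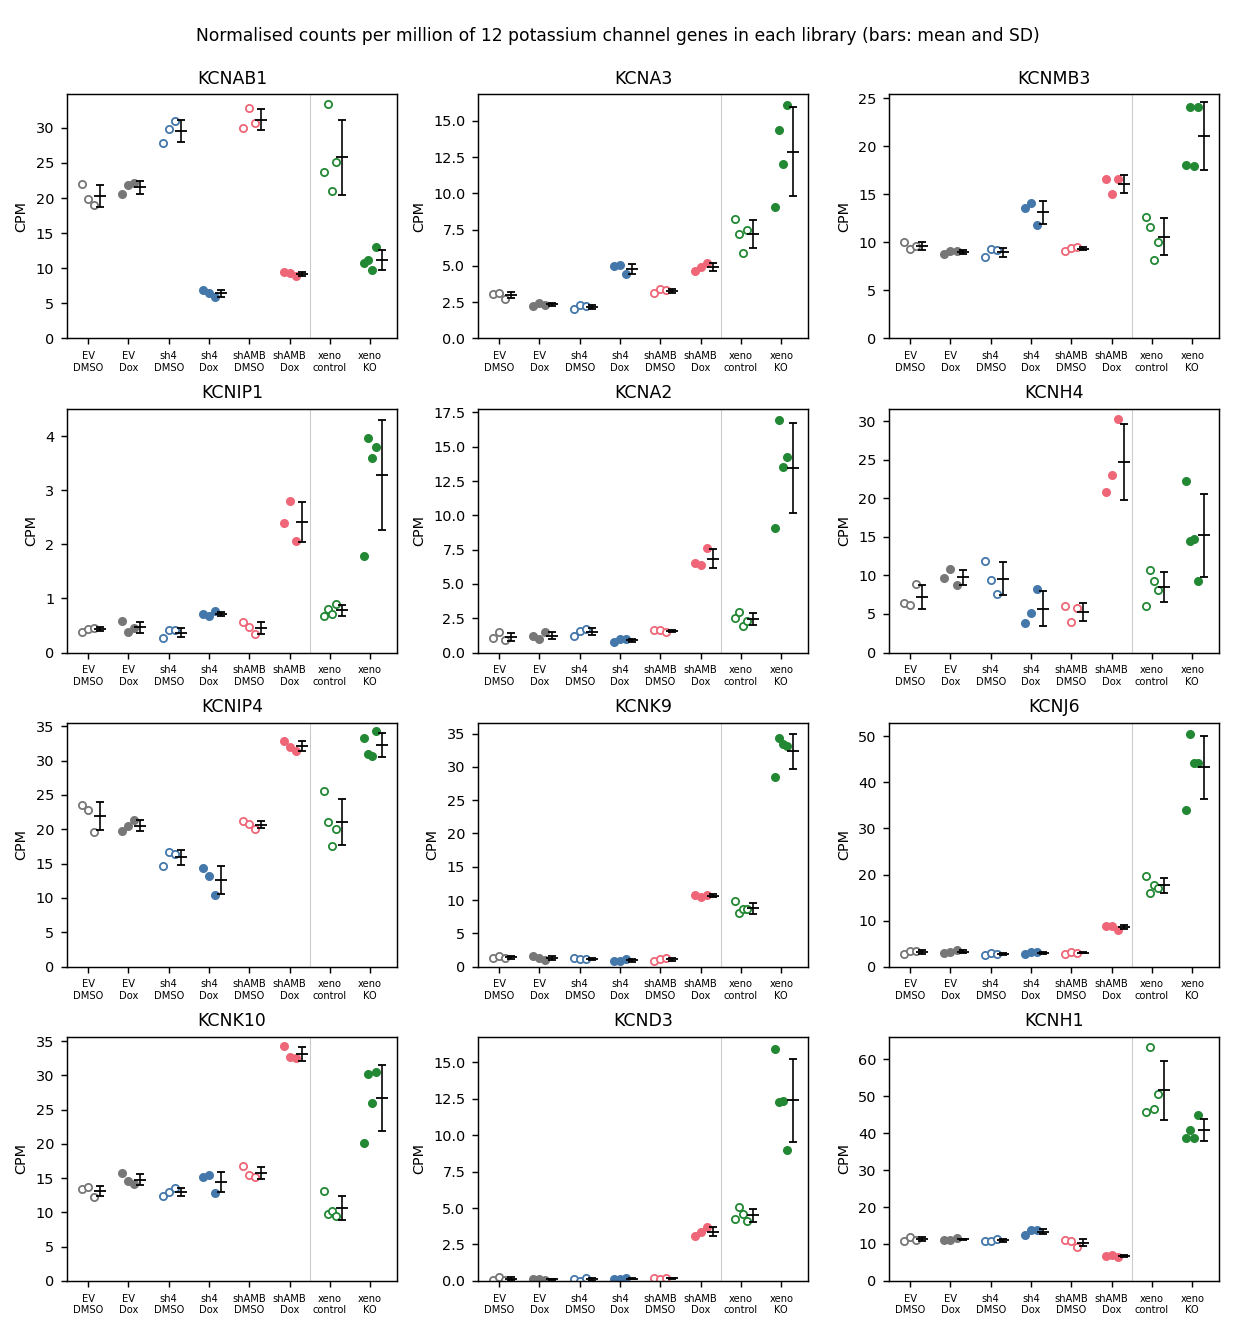
CPM of 12 members in each of the 26 libraries, with the mean and SD of each group beside its points (n = 3 in culture, n = 4 in xenografts). Filled points are doxycycline or KO groups. For KCNAB1 every filled point of a hairpin line or of the xenografts lies below its open ones, for KCNK9 and KCNJ6 only the filled shAMB and xenograft points stand above their open ones, and for KCNIP4 the filled sh4 points lie below and the filled shAMB points above their open ones.

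The doxycycline changes of the 2 hairpin lines, which share no library, were set against each other. Of the 59 tested members, 6 rose with both, among them KCNA3, KCNH8, KCNIP1, KCNMA1 and KCNMB3, beside 8.75% of all genes, and 2 fell with both (KCNAB1 and KCNK3), beside 7.11%. Beyond the EV change, KCNA3 and KCNMB3 were called higher in both lines. KCNH8 and KCNIP1 were called beyond EV in shAMB but not in sh4, and KCNMA1 in neither. A further 10 fell with sh4 and rose with shAMB, among them KCNA2, KCNB2, KCNH3, KCNH4, KCNH6, KCNIP4, KCNN1, KCNQ1OT1 and KCNQ5, beside 5.41% of all genes, and KCNH1 did the reverse, beside 6.94%. For all of these 11 the difference between the lines passed its own test. In the direct test sh4 exceeded shAMB for 8 members and was below it for 28, beside 27.8% and 33.1% of all genes (60.9% together). Of the 28, KCND3, KCNE4, KCNIP3 and KCNJ4 reached the filter level in 1 group or none, so the 28 are not read against the background. With GC and length trends removed the split was 13 and 21 (38.2% higher in sh4), where all genes called went from 45.7% to 52.65% higher. Among members that averaged 1 CPM or more, the differences were largest for KCNK9 (-3.54), KCNH4 (-2.99), KCNH6 (-2.89) and KCNA2 (-2.84). KCNAB1 fell further with sh4, with a difference of -0.44 on the log2 scale (adjusted p = 0.00219).

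**Figure D4:**
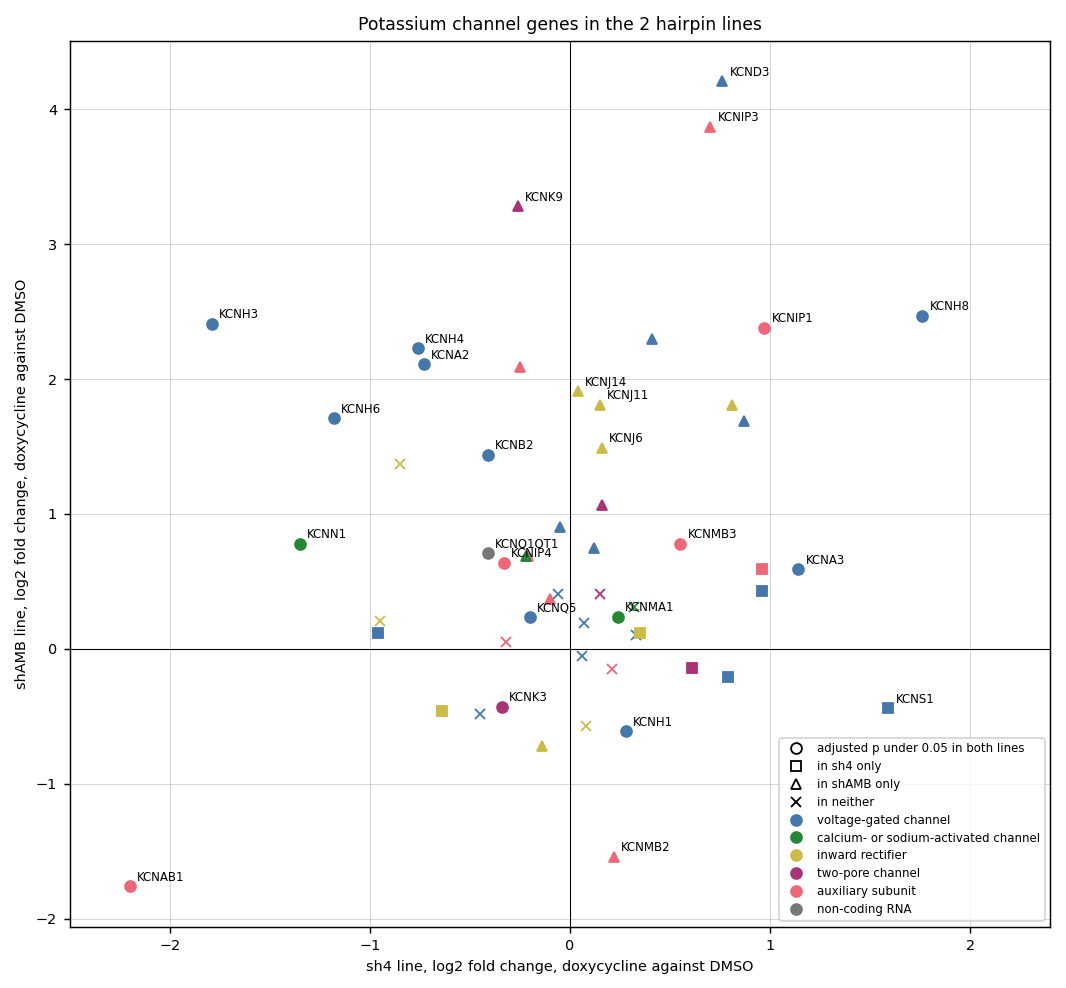
Log2 fold change of doxycycline against DMSO in shAMB (vertical) against sh4 (horizontal) for 55 of the 59 tested members, coloured by class. Circles passed the threshold in both lines, squares in sh4, triangles in shAMB and crosses in neither. KCNAB1 lies alone at the lower left (-2.20 and -1.76), and KCNA2, KCNH3, KCNH4, KCNH6 and KCNN1 lie at the upper left.

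Set against the EV line, 8 members rose and 11 fell more with doxycycline in sh4, beside 17.8% and 14.7% of all genes (32.6% together). The sh4 count of 19 was 12 without EV DMSO replicate 1, 12 without EV doxycycline replicate 2 and 10 without sh4 DMSO replicate 1, and 11 with only the compared groups fitted. KCNAB1, KCNA3, KCNH4, KCNH6, KCNK2, KCNMB3 and KCNS1 were among those called there in every alternative. In shAMB 25 rose and 5 fell beyond EV, beside 23.7% and 21.7% (45.5% together). Of the 25, KCNA6, KCND3, KCNE4 and KCNH8 reached the filter level in only 1 group, so the 25 are not read against the background. The 5 were KCNAB1, KCNH1, KCNJ9, KCNK3 and KCNMB2, the same 5 that fell within shAMB. With GC and length trends removed the shAMB split was 25 and 10 (71.4% higher), beside 49.9% higher among all genes called. Both comparisons use the same EV libraries. On TPM the split beyond EV in sh4 was 14 and 6 (70% higher), while all genes called went from 54.8% to 83.4% higher. The median of all genes shifted from -0.02 to 0.18 in sh4 and from 0.08 to 0.29 in shAMB.

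Without doxycycline the lines differed at few members. Against EV, sh4 was higher for KCNAB1 and lower for KCNA3 (3.08, 3.16 and 2.74 CPM in EV and 2.02, 2.28 and 2.23 in sh4) and for KCNIP4 (23.5, 22.8 and 19.6 and 14.7, 16.7 and 16.4 CPM, log2 fold change -0.46, adjusted p = 0.0287), beside 1.12% of all genes. Only KCNAB1 remained without EV DMSO replicate 1 or 2 or any 1 of the sh4 DMSO replicates. RUNX1T1 itself was lower in uninduced sh4 than in EV cells (log2 fold change -0.29, adjusted p = 0.0144). Uninduced shAMB differed from EV at KCNAB1 alone, beside 1.52% of all genes.

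Xenografts and shAMB cultures, which share no library, were then compared at the 59 members tested in both. In both, 20 members were higher in the group given doxycycline, beside 17.2% of all genes tested in both, and KCNAB1 and KCNH1 were lower, beside 16.7%. Of the 20, 5 (KCNA6, KCND3, KCNE4, KCNF1 and KCNIP3) reached the filter level in culture in only 1 group, so that they had to be high there to be tested, and the count of 20 is not read against the background. Among the 20 were the 8 members with the largest xenograft rises at an average of 1 CPM or more, which were KCNA2, KCNIP1, KCNK9, KCNH6, KCND3, KCNK10, KCNJ14 and KCNJ6. Their xenograft log2 changes ran from 1.29 to 2.48. KCNV2, a silent subunit known from the retina, and KCNJ13, an inward rectifier of epithelia, were tested in xenografts only. KCNV2 rose from 1.43, 1.45, 0.591 and 1.04 to 2.54, 2.48, 2.20 and 2.37 CPM (adjusted p = 0.00777), and KCNJ13 was at 6.02, 7.32, 4.26 and 5.13 CPM in controls and 7.01, 5.91, 4.36 and 6.86 with KO (log2 fold change 0.09, 95% interval -0.37 to 0.55), while no culture library exceeded 0.142 CPM.

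Base composition moved with the direction of change. The median GC content of transcripts was 53.8% over the 59 members tested in culture against 49.5% over all genes tested. It was 48.7% for the 13 members that rose with sh4 and 58.98% for the 14 that fell, and 45.6% and 50.7% for all genes that rose and fell. In shAMB it was 54.6% for the 34 that rose and 50.6% for the 5 that fell, against 55.1% and 45.1% for all genes. The 10 members that fell with sh4 and rose with shAMB had a median of 58.1%. Its part in the opposite calls was not tested apart from the alternative with these trends removed. There KCNA2, KCNH3, KCNH4 and KCNH6 were among those that kept both calls. KCNN1 lost its shAMB call there, and KCNQ1OT1 lost its sh4 call and turned to -0.81 in shAMB.

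Other potassium transport genes were taken from lists of 32 genes, to be read beside 40.9% of all genes called in sh4, 66% in shAMB and 41.1% in xenografts. With both hairpins, of 11 channel partners not named KCN (7 tested), AMIGO1, ABCC8 and AKAP9 rose, and DPP6, a Kv4 partner, fell with sh4 and rose with shAMB. All 3 tested HCN pacemaker channels (of 4) rose in shAMB and none passed in sh4 or xenografts. Of the 3 intracellular channels TMEM175, TMEM38A and TMEM38B, 1 rose in sh4, 2 rose and 1 fell in shAMB, and 1 was higher in KO xenografts. Of 7 sodium-potassium pump subunits 4 were tested. In sh4 2 of these rose and 1 fell, in shAMB 2 and 2, and in xenografts 2 and 1, and the beta subunit ATP1B1 rose in all 3. Of 7 cation-chloride cotransporters, 3 rose in sh4, 4 in shAMB and 3 in xenografts, and none fell. None of those called in sh4, which include SLC12A2 and SLC12A3, was called in shAMB, where SLC12A1, SLC12A4, SLC12A5 and SLC12A7 rose.

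The 34 members tested in neither table never averaged over 0.287 CPM in any group, and the most counts in any of their libraries was 29 (KCNK7). They include KCNA1, KCNA4, KCNJ2, KCNN4 and KCNQ1, and changes in them were not tested because their counts were too low for the filter. With no filter on low counts, 96 members were tested in xenografts and 30 of them passed, in place of 29 of 63. Among tested members, exons are overlapped by other genes over 28.1% of KCNH1 and 23.5% of KCNJ14 on the other strand, and over 32.1% of KCNMB2 on the same strand.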

How the data were processed

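RNA from 18 KELLY cultures and 8 xenografts was sequenced, and the authors deposited RSEM expected counts and TPM per gene, as separate tables for culture and xenografts. The submitters' processing notes name STAR, SAMtools, RSEM and hg38. Whether counting used strand was not given in the sources used here. Column names were read as in the labels, with Neg as DMSO and Pos as doxycycline. Expected counts were rounded, filtered with filterByExpr (count level 10), TMM-normalised and tested with the edgeR quasi-likelihood test (edgeR 4.0.16, R 4.3.3), all 6 culture groups in 1 fit and the xenografts in another, p-values being adjusted by Benjamini-Hochberg across every tested gene, with a threshold of 0.05. This left 14905 and 15960 of 26485 genes. CPM are TMM-scaled, and intervals are 95%. The code was tested on simulated counts.

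Alternatives were RLE size factors, no filter, DESeq2 1.42.0, limma 3.58.1 on log2(TPM + 0.1) of the deposited TPM, only the compared groups, a replicate block, removal of GC and length trends (values for 91.1% and 89.9% of genes), and each library left out. Replicates differed beyond counting noise (chi-square per degree of freedom at least 1.82).

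Members and lists were chosen with earlier results of these data known. Named with values were KCNAB1, in each comparison up to 8 non-overlapping members per direction with a mean of at least 1 CPM by fold, members called with both hairpins, the 12 highest per kilobase, members differing between uninduced lines, counts of 5 or fewer, and uncalled members over 10 CPM. KCNA6, KCND3 in sh4, KCNE4, KCNF1, KCNH3, KCNH8, KCNIP3, KCNJ5, KCNJ13, KCNN1, KCNN3, KCNS1, KCNV2 and the untested members were named after their values were seen. The other potassium transport genes named are those past the threshold with both hairpins and members of short lists. For 4 members and 3 other transport genes single values are not reported here, though counts over all members include them. Promoter letters come from RefSeq, and overlaps from GENCODE.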

Additional observations from a re-analysis of the deposited data

Results flagged for a closer look

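Of 32 members that the naming rule picked and that are reported here, 25 differed between the hairpin lines in their response to doxycycline, by the test of the difference itself in the edgeR fit of all genes (log2 change in sh4 minus that in shAMB). The change was higher in sh4 for KCNA3 (0.55), KCNH1 (0.89), KCNJ8 (0.23), KCNJ9 (0.58), KCNK2 (0.76), KCNMB2 (1.75) and KCNS3 (1.00). It was lower in sh4 for KCNA2 (-2.84), KCNAB1 (-0.44), KCNAB2 (-0.90), KCNB2 (-1.86), KCND3 (-3.44), KCNH4 (-2.99), KCNH6 (-2.89), KCNIP1 (-1.41) and KCNIP2 (-0.47). The same held for KCNIP4 (-0.96), KCNJ11 (-1.66), KCNJ14 (-1.87), KCNJ6 (-1.33), KCNK10 (-0.91), KCNK9 (-3.54), KCNQ1OT1 (-1.12), KCNQ5 (-0.45) and KCNT2 (-0.91). Adjusted p ranged from 4.1e-08 for KCNK9 to 0.0339 for KCNJ8. These members were picked partly by their changes, so their share is not read against all genes. KCND3 also reached the filter level in only 1 culture group and could be tested only if high there. Of all 59 tested members 36 differed (61.0%), beside 60.9% of all genes tested, and no cause was tested. In 64 groups of 4 xenografts, 2 for each of these members, 0 held a library far from the other 3, where chance gives about 1 in 20.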

How the results depend on the processing

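Of the counts of members called, 5 moved by more than 1.5 times outside the runs that left out a library. With only the compared groups fitted, the sh4 response went from 27 to 14 members, sh4 beyond EV from 19 to 11 and uninduced sh4 against EV from 3 to 0. Limma on TPM gave 19 in xenografts in place of 29. Uninduced shAMB against EV gave 2 with GC and length trends removed in place of 1. Leaving out each library in turn gave 0 to 0 members in EV, 20 to 32 in sh4, 36 to 38 in shAMB, 10 to 22 for sh4 beyond EV, 28 to 32 for shAMB beyond EV, 33 to 40 between the hairpins, 1 to 3 and 1 to 1 for uninduced sh4 and shAMB against EV, and 24 to 31 in xenografts. Replicate numbers did not pair the libraries: the deviations of same-numbered libraries correlated at r = -0.897 to 0.473 in 13 pairs, 2 of them over 0.1. With a replicate block the counts were 0 in EV, 28 in sh4, 37 in shAMB, 17 and 29 beyond EV, 36 between hairpins, 3 and 1 for the uninduced lines, and 24 in xenografts. Removing GC and length trends reversed 13 values of named members. In sh4 KCNH2 became 0.21. In shAMB KCNH2 became -0.35 and KCNQ1OT1 -0.81. Beyond EV these were KCNH2 0.22 in sh4, and KCNH2 -0.34, KCNK5 -0.28 and KCNQ1OT1 -0.67 in shAMB. Between hairpins they were KCNH2 0.56, KCNJ12 0.76, KCNK5 0.45 and KCNQ1OT1 0.71. KCNJ12 became -0.15 in uninduced sh4 against EV and KCNQ1OT1 -0.57 in xenografts. On TPM, KCNMA1 became -0.70 between hairpins. Of all values of named members, 4112 kept direction and call, 160 lost a call and 59 gained one. The cause was not tested. Members under about 1 CPM rest on few counts, and with 3 or 4 libraries a group small changes were not detectable.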
